A study of Mus musculus with 6 samples.

Results

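The genes described here are 8 genes of the MHC class II pathway, chosen by name for their function: the chains H2-Aa, H2-Ab1, H2-Eb1, H2-DMa and H2-DMb1, the invariant chain Cd74, the transactivator Ciita and the protease Ctss. They are 8 of 55401 genes in the count table, and all 8 had enough counts to be among the 18438 genes tested. RNA was sequenced from endothelial cells (ECs) of the kidney, taken from male mice by a sort for CD31 and against CD45, with 3 libraries from RbpjΔEC mice and 3 from CTRL mice and 1 library per mouse. RbpjΔEC mice carried floxed Rbpj alleles and Cdh5CreERT2, a Cre recombinase driven by the Cdh5 promoter, which is active in blood and lymphatic ECs, and switched on by tamoxifen. CTRL mice were Cre-negative littermates with the floxed alleles and received the same tamoxifen, 5 doses of 1.5 mg from 8 weeks of age, and both groups were collected 12 weeks after induction at a labelled age of 21 weeks. The comparison asks how the class II genes of kidney ECs stood after the loss of Rbpj, the DNA-binding factor through which Notch receptors act.

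MHC class II molecules are pairs of an alpha and a beta chain that display peptides from the endosome to CD4-positive T cells. The chains are built around the invariant chain Cd74, which fills the groove until cathepsins such as cathepsin S cut it away, and H2-DM then helps exchange the last fragment for peptide. Ciita switches the genes on together by binding to the RFX, CREB and NF-Y factors on their promoters, and interferon-γ induces Ciita in cells that are not professional antigen-presenting cells, ECs among them.

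The promoters of H2-Aa, H2-Eb1 and H2-DMb1 are shown because they hold the letters of the class II promoter layout, which the other matched members do not. RefSeq promoters on GRCm38.p6, from 250 bases before to 50 bases after each start, were matched for 5 of the 8 genes, H2-Aa, H2-Eb1, H2-DMa, H2-DMb1 and Ctss. The windows below give the 130 bases before the start, 5′ to 3′ on the strand of the gene, at chr17:34287824-34287953 on the minus strand for H2-Aa, chr17:34305737-34305866 on the plus strand for H2-Eb1 and chr17:34153061-34153190 on the plus strand for H2-DMb1. Capitals mark GNAAC, in the place of the X box that RFX binds, and ATTGG, the core of the Y box that NF-Y binds.
H2-Aa: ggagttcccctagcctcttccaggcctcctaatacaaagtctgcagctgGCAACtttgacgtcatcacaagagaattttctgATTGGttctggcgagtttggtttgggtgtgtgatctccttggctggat
H2-Eb1: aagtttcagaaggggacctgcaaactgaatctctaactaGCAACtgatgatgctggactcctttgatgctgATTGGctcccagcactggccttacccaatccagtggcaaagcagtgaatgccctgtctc
H2-DMb1: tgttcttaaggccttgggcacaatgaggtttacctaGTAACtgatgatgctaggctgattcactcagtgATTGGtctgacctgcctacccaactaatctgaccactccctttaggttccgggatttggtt

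In the H2-Eb1 promoter ACNGATG began at position -88 from the start and ATTGG at position -59, with 22 bases between them. The H2-DMb1 promoter had the same pair at -91 and -61, with 23 bases between them. Such a pair, ACNGATG followed by ATTGG after 10 to 40 bases on the same strand and searched on both strands, was in 74 of 32851 RefSeq promoters (0.2253%), and H2-Aa, H2-DMa and Ctss had no match. With the shorter GNAAC, which ends on the first bases of ACNGATG and was chosen after these sequences had been read, H2-Aa also matched, with GNAAC at -81 and ATTGG at -48, as did 1601 promoters (4.874%). The letters ATTGG alone were in 37.41% of promoters. GTGGGAA, the core of the motif bound by Rbpj, was in 6.383% of promoters and in none of the 5 matched here. These matches are letters in a window and not measured binding.

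The 6 libraries held between 39649171 and 47726850 counts on genes, so that a floor of 3 counts lay between 0.0634 and 0.0749 CPM (counts relative to the TMM-scaled library size, which corrects for library composition), a limit of counting error only. CTRL 1 stood apart with counts on 33764 genes, while the other libraries listed between 25629 and 26785. Rbpj itself was at 28.1, 29.7 and 29.8 CPM in CTRL 1 to 3 and at 28.9, 26.1 and 29.6 CPM in RbpjΔEC 1 to 3 (log2 fold change -0.05, adjusted p = 0.793, edgeR). This count covers the whole gene and not the floxed part alone, so the overlap of the groups does not check the deletion. Pecam1, the gene of CD31, was at 2010 to 2324 CPM in CTRL and 1889 to 2078 CPM in RbpjΔEC and Cdh5 at 1823 ± 135 and 1594 ± 146 CPM (SD, n = 3 each), so the EC label held in both groups. Among proximal tubule genes RbpjΔEC 3 stood apart, with Lrp2, an uptake receptor of that tubule, at 129.2 CPM against 13.7 to 40.4 CPM in the other libraries.

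None of the 8 class II genes passed the adjusted threshold of 0.05 between RbpjΔEC and CTRL (quasi-likelihood test of edgeR, Benjamini-Hochberg adjusted over all 18438 genes), where 1.13% of all tested genes did. At an unadjusted p under 0.05 there was 1 of 8, H2-Ab1, which was lower, against 8.62% of tested genes that were lower at that level. DESeq2 placed 0 of 8 past its adjusted threshold, where 1.52% of its genes passed, and 3 of 8 (H2-Aa, H2-Ab1 and H2-Eb1) at an unadjusted p under 0.05, against 8.52%. The log2 fold change was below 0 in 7 of 8, with a median of -0.37, and the median over all tested genes was 0.01, with 48.9% below 0. The groups failed to overlap in 1 of 8, H2-DMb1, while 23.0% of tested genes had groups that did not overlap. RbpjΔEC 3 was the lowest of all 6 libraries for 6 of the 8 genes, and CTRL 3 was the lowest CTRL library for 6 of 8. With mean levels in bulk RNA, fewer cells that express a gene and less RNA per cell cannot be told apart.

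**Figure D1:**
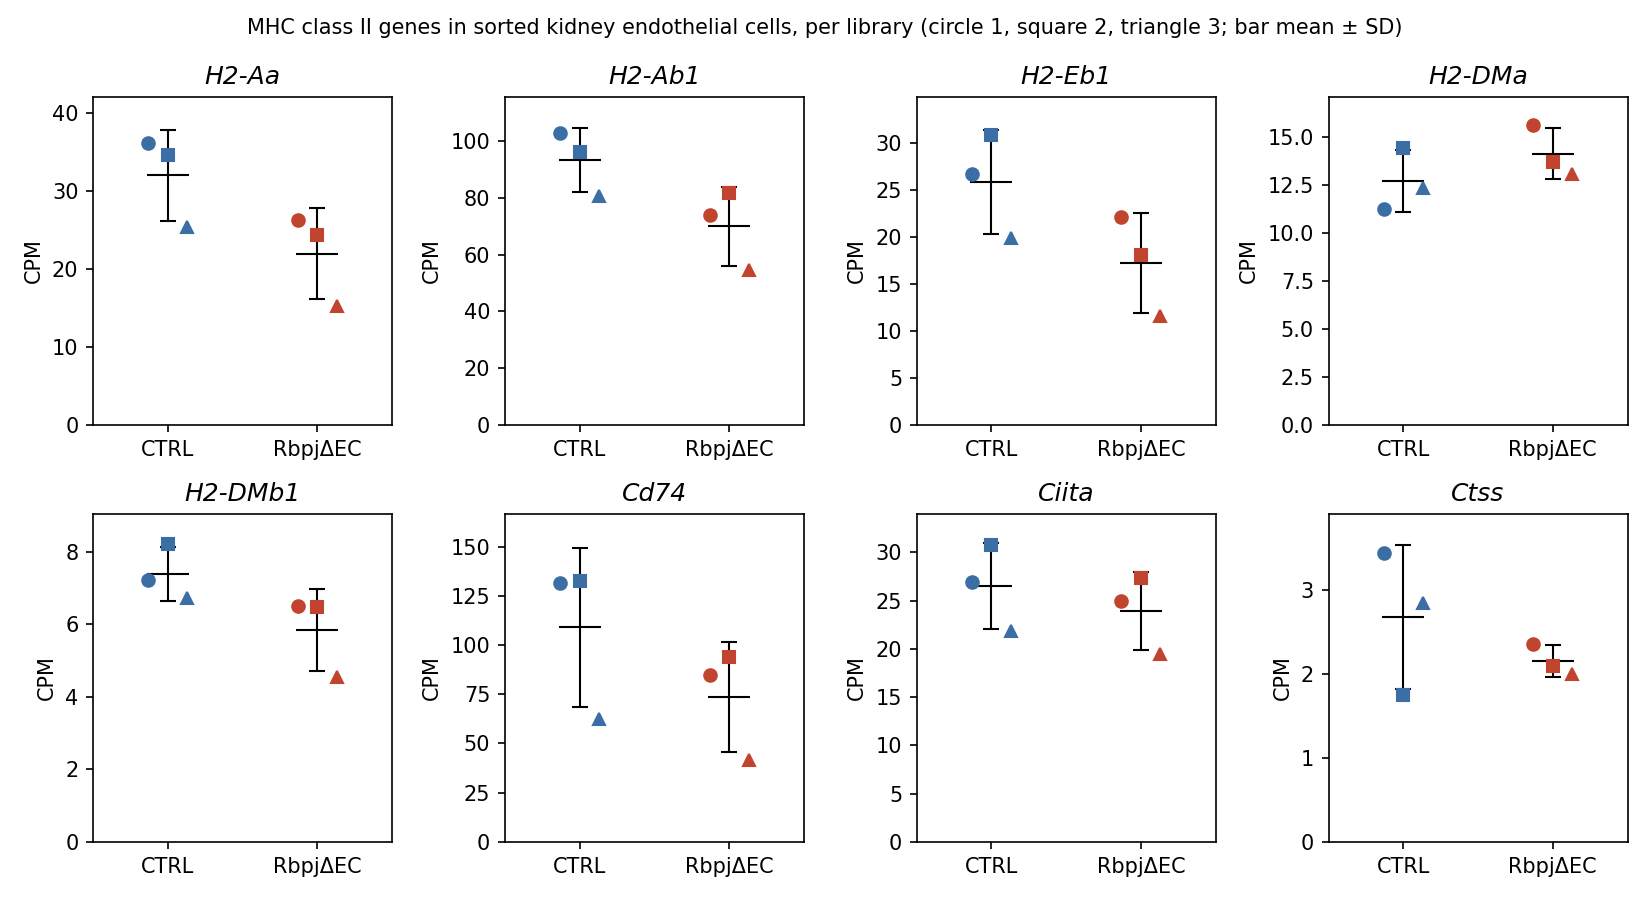
Levels of the 8 class II genes in CPM (vertical axis of each panel, starting at 0) in CTRL (blue) and RbpjΔEC (red) libraries, with circles, squares and triangles for replicates 1, 2 and 3 and bars for the mean ± SD (n = 3). In H2-Aa, H2-Ab1, H2-Eb1, H2-DMb1, Cd74 and Ciita the triangle is the lowest point of both groups, and H2-DMb1 alone has groups that do not overlap.

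The peptide-binding chains H2-Aa, H2-Ab1 and H2-Eb1 had lower means in RbpjΔEC with overlapping groups. H2-Aa (ENSMUSG00000036594.15, chr17:34282744-34287823 on the minus strand of GRCm38), the alpha chain of I-A, was at 36.1, 34.7 and 25.3 CPM in CTRL 1 to 3 and at 26.2, 24.4 and 15.3 CPM in RbpjΔEC 1 to 3. RbpjΔEC 1 lay above CTRL 3, and the other RbpjΔEC libraries lay below every CTRL library. The means were 32.0 ± 5.85 and 22.0 ± 5.87 CPM (SD, n = 3 each), and the log2 fold change was -0.54 (SE 0.228, 95% interval -1.09 to 0.00, adjusted p = 0.285, edgeR).

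H2-Ab1 (ENSMUSG00000073421.6, chr17:34257689-34269419, plus strand), the beta chain that pairs with H2-Aa, had 103.0, 96.2 and 80.8 CPM in CTRL and 74.0, 81.6 and 54.7 CPM in RbpjΔEC. Only RbpjΔEC 2 reached the range of CTRL, just above CTRL 3. Its log2 fold change was -0.41 (SE 0.153, 95% interval -0.77 to -0.06, adjusted p = 0.221), from 93.3 ± 11.4 to 70.1 ± 13.9 CPM (SD, n = 3 each, edgeR).

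H2-Eb1 (ENSMUSG00000060586.11, chr17:34305867-34316674, plus strand) is the beta chain of I-E. It was at 26.7, 30.9 and 19.9 CPM in CTRL and at 22.2, 18.0 and 11.6 CPM in RbpjΔEC, with RbpjΔEC 1 above CTRL 3. The log2 fold change of -0.58 had the widest interval of the 3 chains (SE 0.268, -1.23 to 0.07, adjusted p = 0.330, edgeR), for means of 25.9 ± 5.54 and 17.3 ± 5.34 CPM (SD, n = 3 each). Its partner H2-Ea, which many laboratory strains do not express, had 2, 0 and 0 counts in CTRL and 0, 1 and 0 in RbpjΔEC. No library exceeded 3 counts of H2-Ea, so it was at or under the floor throughout.

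Cd74 (ENSMUSG00000024610.15, chr18:60803848-60812652, plus strand), the invariant chain, was the most variable of the chains within groups. It was at 131.5, 132.8 and 62.6 CPM in CTRL and at 85.0, 94.0 and 41.8 CPM in RbpjΔEC. The third library of each group was lower than the other 2, and CTRL 3 lay below RbpjΔEC 1 and 2. Means of 109.0 ± 40.2 and 73.6 ± 27.9 CPM (SD, n = 3 each) gave a log2 fold change of -0.57 with an SE of 0.470 and an interval from -1.83 to 0.70 (adjusted p = 0.603, edgeR). The SD was 36.9% of the mean in CTRL and 37.9% in RbpjΔEC.

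Ctss (ENSMUSG00000038642.10, chr3:95526786-95556403, plus strand), cathepsin S, had few counts, between 80 and 138 in a library. Its level was 3.44, 1.75 and 2.84 CPM in CTRL and 2.36, 2.10 and 2.00 CPM in RbpjΔEC, and its lowest library was CTRL 2, one in which the chains were high. The log2 fold change was -0.31 (SE 0.280, 95% interval -0.92 to 0.30, adjusted p = 0.601, edgeR), which leaves room for a change in either direction.

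The H2-DM chains, which form 1 heterodimer, lay on opposite sides of 0. H2-DMa (ENSMUSG00000037649.10, chr17:34119541-34139101, plus strand), its alpha chain, had 11.3, 14.5 and 12.4 CPM in CTRL and 15.6, 13.7 and 13.1 CPM in RbpjΔEC, with only CTRL 2 inside the range of RbpjΔEC. It was the sole member with a fold change above 0 (log2 fold change 0.15, SE 0.127, 95% interval -0.12 to 0.43, adjusted p = 0.564, edgeR). H2-DMa shares 360 exonic bases with Brd2, a bromodomain gene on the opposite strand, which was at 599.0 ± 44.6 and 776.2 ± 63.1 CPM (SD, n = 3 each, log2 fold change 0.37, adjusted p = 0.0582, edgeR). The strand setting of the counting is not given in the sources used here, and the part of Brd2 reads in the H2-DMa counts was not tested.

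H2-DMb1 (ENSMUSG00000079547.4, chr17:34153072-34160230, plus strand), the beta chain, was at 7.21, 8.20 and 6.72 CPM in CTRL and at 6.51, 6.46 and 4.54 CPM in RbpjΔEC. Each RbpjΔEC library lay below each CTRL library, by a narrow margin between CTRL 3 and RbpjΔEC 1 (two-sided exact permutation p = 0.1, below which 3 libraries against 3 cannot go). The log2 fold change was -0.34 (SE 0.180, 95% interval -0.73 to 0.06, adjusted p = 0.358, edgeR). H2-DMb1 has a close copy, H2-DMb2, between which reads may be split, and H2-DMb2 was listed with 3, 5 and 4 counts in CTRL and 0, 0 and 2 in RbpjΔEC.

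The other class II chains were near 0 or level. H2-Oa and H2-Ob form H2-O, which restrains H2-DM. H2-Oa had 0, 0 and 2 counts in CTRL and 0, 0 and 1 in RbpjΔEC, while H2-Ob was at 8.31 ± 1.47 and 8.46 ± 1.97 CPM (SD, n = 3 each, log2 fold change 0.02, adjusted p = 0.963, edgeR). H2-Eb2 had 5, 3 and 1 counts in CTRL and 0 in each RbpjΔEC library. Of this pair of H2-O chains only the beta chain was above the floor in kidney ECs.

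Ciita (ENSMUSG00000022504.10, chr16:10480059-10528418, plus strand), the transactivator, was nearly level between the groups. It had 1078, 1454 and 924 counts in CTRL and 1121, 1145 and 781 in RbpjΔEC, and the groups overlapped widely. The means were 26.5 ± 4.43 and 23.9 ± 4.01 CPM (SD, n = 3 each). The log2 fold change was -0.15 (SE 0.148, 95% interval -0.48 to 0.18, adjusted p = 0.652, edgeR). Dexi, on the opposite strand, shares 329 exonic bases with Ciita, and the part of Dexi reads in the Ciita counts was not tested.

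The factors that Ciita binds did not pass the test, 0 of 7 in either direction, with a median log2 fold change of 0.14. Rfx5, a subunit of the RFX complex, was at 34.5 ± 0.928 CPM in CTRL and 41.2 ± 4.76 CPM in RbpjΔEC without overlap (log2 fold change 0.26, adjusted p = 0.183). Rfxap, another subunit, was at 18.9 ± 0.872 and 22.8 ± 3.66 CPM, also without overlap (0.27, adjusted p = 0.251, edgeR, SD and n = 3 in each group for both genes). Rfxank had a log2 fold change of 0.14, the NF-Y subunits Nfya, Nfyb and Nfyc had -0.12, -0.12 and 0.15, and Creb1 had -0.06, with adjusted p between 0.398 and 0.703. The groups failed to overlap in 4 of these 7 genes, Rfx5, Rfxap and Nfyc with the higher values in RbpjΔEC and Nfya with the lower, beside 23.0% of all tested genes.

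Of 8 genes of the interferon-γ path, 2 rose in RbpjΔEC and 0 fell, where 0.575% of all tested genes rose, and the median of the 8 was 0.07. Irf1, a transcription factor that interferon-γ induces and that acts on Ciita, was at 240.1, 268.9 and 252.4 CPM in CTRL and at 352.0, 363.2 and 314.7 CPM in RbpjΔEC. Every RbpjΔEC library was above every CTRL library, and the log2 fold change was 0.44 (95% interval 0.27 to 0.60, adjusted p = 0.0246, edgeR). Socs1, a feedback inhibitor of the JAK kinases, was at 17.3, 26.4 and 19.9 CPM in CTRL and at 35.5, 40.4 and 32.4 CPM in RbpjΔEC. It too had separate groups (log2 fold change 0.77, 95% interval 0.43 to 1.10, adjusted p = 0.0468, edgeR).

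Both calls were lost without some libraries, while the log2 fold change over the 6 fits that each left out 1 stayed at 0.39 to 0.49 for Irf1 and 0.64 to 0.95 for Socs1. Irf1 passed in 2 of these 6, and missed without CTRL 1 (adjusted p = 0.110), CTRL 3 (0.121), RbpjΔEC 1 (0.127) or RbpjΔEC 2 (0.0990). Socs1 likewise passed in 2 of 6, and missed without CTRL 1 (adjusted p = 0.110), CTRL 3 (0.193), RbpjΔEC 1 (0.171) or RbpjΔEC 2 (0.129). In the 4 fits that lost both, 21 to 54 genes passed in all, against 209 with every library. The receptor chains Ifngr1 and Ifngr2 had log2 fold changes of -0.07 and 0.13, the kinases Jak1 and Jak2 had -0.11 and 0.17 and Irf2 had 0.00, and none of these passed the test. The difference between Irf1 and Ciita in their fold changes was not tested.

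**Figure D2:**
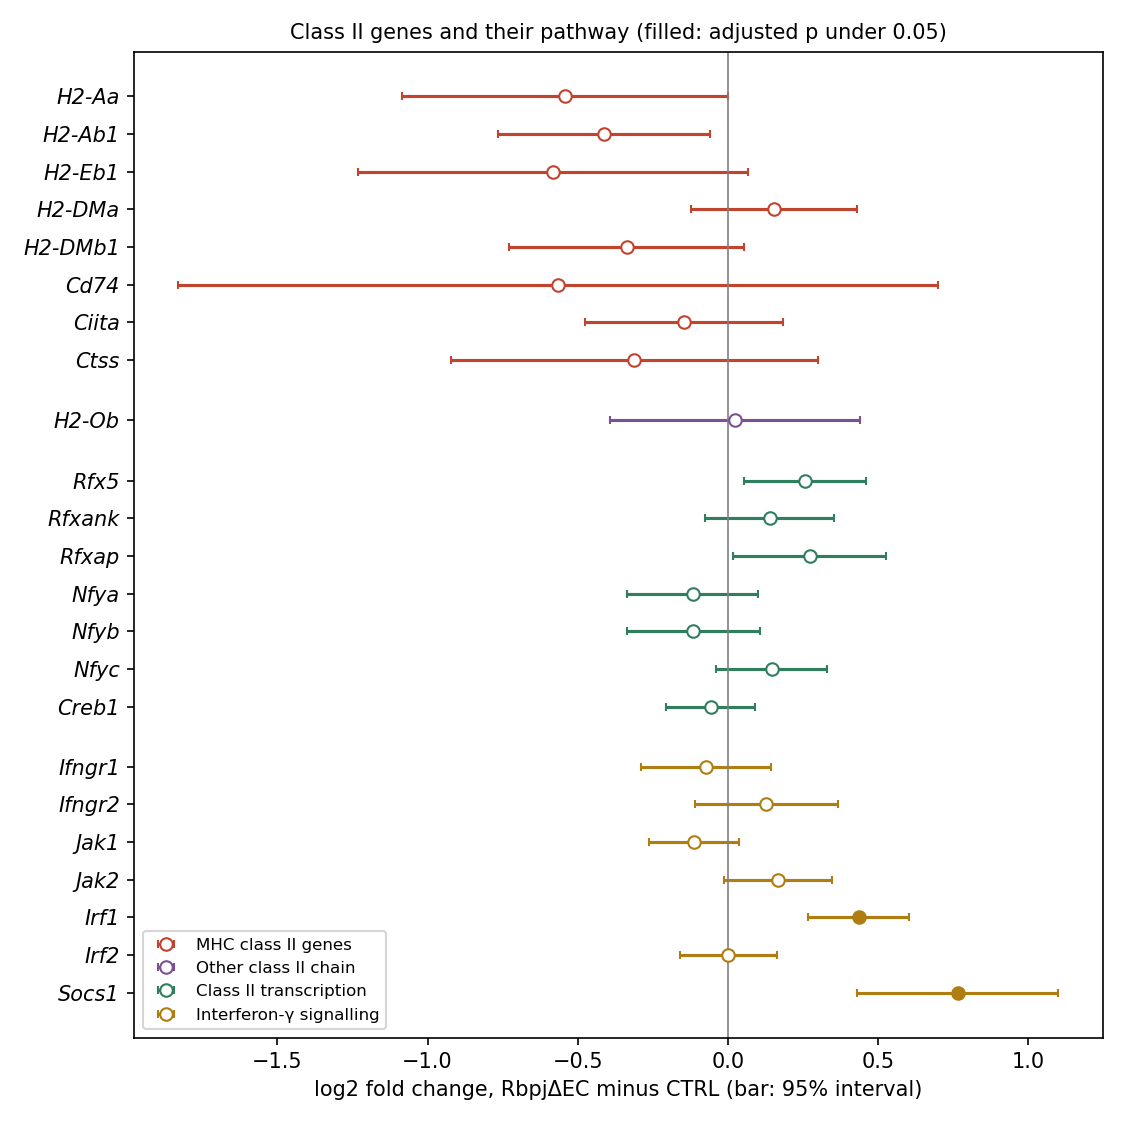
Log2 fold change, RbpjΔEC minus CTRL (horizontal axis), of the 8 class II genes (red), H2-Ob (purple), the factors that Ciita binds (green) and the named genes of the interferon-γ path (gold), with bars for the 95% interval from edgeR (3 libraries against 3) and filled points for an adjusted p under 0.05. The filled points are Irf1 at 0.44 and Socs1 at 0.77, and every class II gene is open.

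Genes of lysosomal processing did not pass the test, with 10 of 11 log2 fold changes below 0, a median of -0.20 and 0 past the threshold. Ctsd, cathepsin D, was at 136.2 ± 9.90 CPM in CTRL and 107.2 ± 7.43 CPM in RbpjΔEC (SD, n = 3 each) with no overlap (log2 fold change -0.35, adjusted p = 0.0602 with edgeR and 0.0178 with DESeq2). Cst3, a cathepsin inhibitor, had a log2 fold change of -0.32 (adjusted p = 0.123) and Ctsb, cathepsin B, of -0.26 (adjusted p = 0.178, edgeR). Marchf8, a ubiquitin ligase of class II, had -0.15 (adjusted p = 0.362), and its relative Marchf1 had 6, 12 and 4 counts in CTRL and 1, 0 and 6 in RbpjΔEC.

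Among 6 costimulatory genes 3 were tested and 0 passed, with a median log2 fold change of -0.12. Icosl, the ligand of ICOS, had -0.36 (adjusted p = 0.149) with separate groups, Cd40 had 0.20 (adjusted p = 0.408) and Cd274, which encodes PD-L1, had -0.12 (adjusted p = 0.564, edgeR). Cd80, Cd86 and Pdcd1lg2 had too few counts to be tested, 18 or fewer in a library. Over the 31 tested genes of all these pathway lists, 12 had a fold change above 0 and 19 below, and the median was -0.11.

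Levels of different members can be compared only per length, here as FPKM on merged exons of GENCODE M21. In CTRL the order ran from Cd74 at 64.9 ± 23.9 through H2-Ab1 at 36.3 ± 4.42, H2-Eb1 at 13.3 ± 2.85, H2-Aa at 8.44 ± 1.54, H2-DMb1 at 4.39 ± 0.446, H2-DMa at 3.69 ± 0.471 and Ciita at 2.78 ± 0.465 to Ctss at 1.97 ± 0.630 FPKM (SD, n = 3 each). Cd74 and H2-Ab1, H2-DMb1 and H2-DMa, and Ciita and Ctss were neighbours whose library ranges overlapped in CTRL. In RbpjΔEC the means ran from 43.8 ± 16.6 FPKM for Cd74 and 27.3 ± 5.42 FPKM for H2-Ab1 down to 1.59 ± 0.140 FPKM for Ctss (SD, n = 3 each), with H2-DMa at 4.10 FPKM above H2-DMb1 at 3.47 FPKM in place of the CTRL order, though their ranges overlapped there too. The merged exonic length counts exons of all transcripts, so a gene whose expressed transcript is shorter can be placed low on this scale. This length was 9535 bases for Ciita, 3798 for H2-Aa, 3448 for H2-DMa and 1681 for H2-DMb1. The transcripts in use were not resolved, so the order of the members can depend on these lengths.

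Several members shared their pattern over the 6 libraries. The correlation of each gene's log2 CPM with the mean standardised log2 CPM of H2-Aa, H2-Ab1, H2-Eb1 and Cd74 was 0.967 to 0.995 for these 4, which are part of the mean. It was 0.958 for H2-DMb1 and 0.886 for Ciita, but 0.272 for Ctss and -0.0812 for H2-DMa (Pearson's r over 6 libraries that include both groups, as a description). Outside the members, the 10 genes of 14126 with the highest correlation were Kpnb1 (0.989), Abhd16a (0.986), Eif5a2 (0.977), Zfyve21 (0.973), Cd247 (0.972), Zfp580 (0.971), Cmpk2 (0.969), Med15 (0.968), Hivep1 (0.967) and Slc39a6 (0.966). None of the 10 passed the test between the groups, and these correlations rest on 6 libraries only.

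Ratios of counts within a library are free of the scaling between libraries, and 7 were compared. Counts of H2-DMb1 per count of H2-DMa were 0.639, 0.566 and 0.543 in CTRL and 0.417, 0.471 and 0.347 in RbpjΔEC. These groups did not overlap (two-sided exact permutation p = 0.1, again the lowest possible, and 0.35 after adjustment over the 7 ratios), subject to the Brd2 overlap given above. H2-Ab1 per Ciita was 3.83, 3.13 and 3.69 in CTRL and 2.96, 2.99 and 2.80 in RbpjΔEC, likewise separate (exact permutation p = 0.1, adjusted 0.35). The ratios to Ciita are subject to its overlap with Dexi given above.

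The remaining 5 ratios overlapped between the groups. Cd74 per H2-Ab1 was 1.28, 1.38 and 0.774 in CTRL and 1.15, 1.15 and 0.766 in RbpjΔEC, lowest in the third library of each group (exact permutation p = 0.5, adjusted 0.583). H2-Aa per H2-Ab1, the pair of I-A chains, was 0.351, 0.360 and 0.314 in CTRL and 0.355, 0.299 and 0.279 in RbpjΔEC (exact permutation p = 0.3, adjusted 0.525). The other ratios, H2-Eb1 per H2-Ab1, H2-Eb1 per H2-Aa and Cd74 per Ciita, had adjusted exact permutation p between 0.525 and 0.6.

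**Figure D3:**
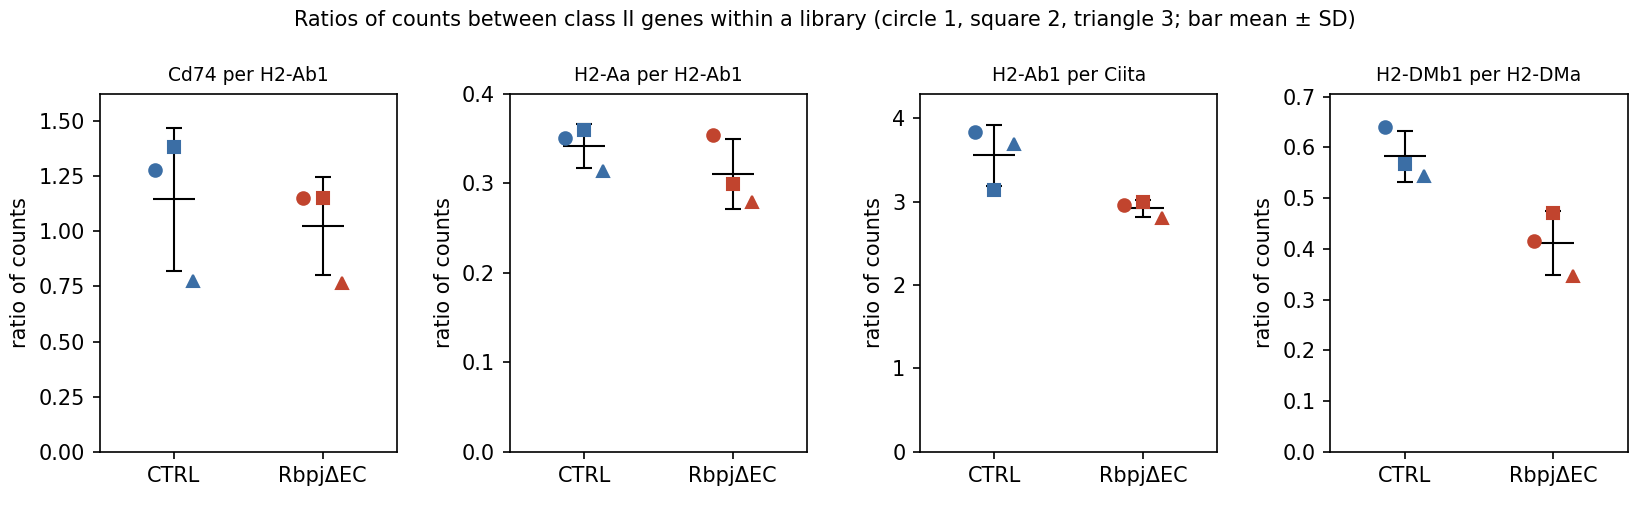
Ratios of counts between class II genes within each library (vertical axes, starting at 0) in CTRL (blue) and RbpjΔEC (red), with circles, squares and triangles for replicates 1, 2 and 3 and bars for the mean ± SD (n = 3). H2-Ab1 per Ciita and H2-DMb1 per H2-DMa have groups that do not overlap, and Cd74 per H2-Ab1 is lowest at both triangles, 0.774 and 0.766.

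On chromosome 17 the I-A and I-E genes lie side by side, and the genes between them and the H2-DM chains had fold changes nearer to 0. Of 16 tested genes of the class II region, 7 had a log2 fold change above 0, 9 below, 0 passed the test with edgeR and the median was -0.01. DESeq2 called 1 of them, Brd2, as higher (adjusted p = 0.00498). The antigen-processing genes Psmb9, Tap1, Psmb8 and Tap2, which serve MHC class I and lie between H2-DMb1 and H2-Ob, had log2 fold changes of 0.06, 0.06, -0.06 and -0.01. Notch4, a Notch receptor of ECs whose annotated left end is 281.5 kb from that of H2-Aa, had -0.09. The difference between the class II genes and these neighbours was not tested.

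**Figure D4:**
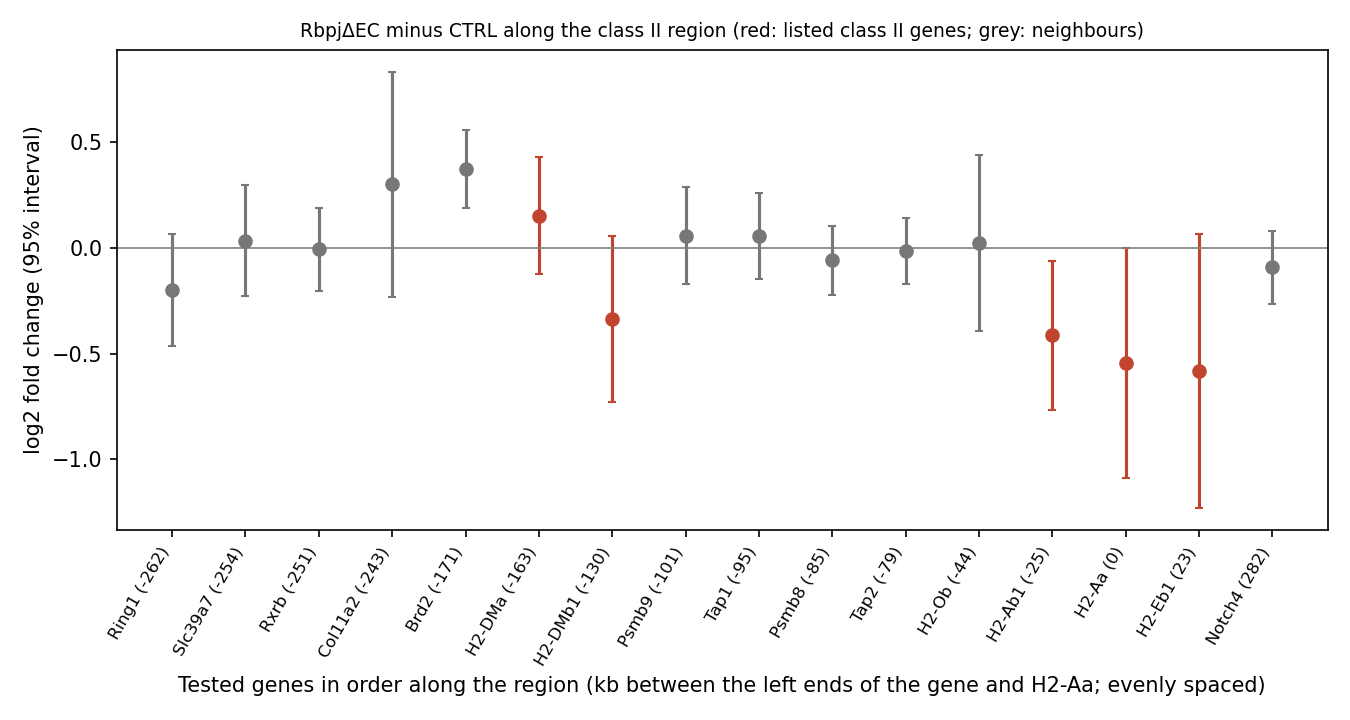
Log2 fold change, RbpjΔEC minus CTRL (vertical axis), with the 95% interval from edgeR (3 libraries against 3), of the 16 tested genes of the class II region in their order on the chromosome (horizontal axis, evenly spaced, with the distance from H2-Aa in kb after each name). The class II genes of the set are red, and H2-Ab1, H2-Aa and H2-Eb1 are at -0.41, -0.54 and -0.58, while Psmb9, Tap1, Psmb8 and Tap2 lie between -0.06 and 0.06.

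B cells, dendritic cells and macrophages carry much class II, and the markers of such cells, which the CD45 gate should remove, were read in the same libraries. Ptprc, the gene of CD45, had 157, 55 and 114 counts in CTRL and 24, 31 and 64 in RbpjΔEC, or 2.59 ± 1.38 and 0.957 ± 0.564 CPM (SD, n = 3 each, log2 fold change -1.44, adjusted p = 0.188, edgeR). CTRL 1, with the most Ptprc counts, had the highest H2-Aa and H2-Ab1, CTRL 2, with the fewest in CTRL, had the highest Cd74 and H2-Eb1, and RbpjΔEC 3, with the most in RbpjΔEC, had the lowest levels of all 4. Of 8 tested leukocyte genes 7 had a log2 fold change below 0 (median -1.16), 5 of them at an unadjusted p under 0.05 and 0 past the adjusted threshold with edgeR. DESeq2 called Laptm5, a lysosomal protein of leukocytes, as lower (log2 fold change -1.80, DESeq2 adjusted p = 0.0394). The summed level of the leukocyte list was 17.8 to 35.2 CPM in CTRL and 16.0 to 18.1 CPM in RbpjΔEC. Arhgdib alone held 9.74 to 13.9 CPM of it in CTRL and 8.79 to 10.5 CPM in RbpjΔEC (log2 fold change -0.33, adjusted p = 0.278, edgeR). H2-Aa, H2-Ab1, H2-Eb1 and Cd74 together held 188.7 to 297.3 and 123.4 to 218.1 CPM. The part of leukocyte RNA in the class II levels was not tested.

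B cell markers were near the floor, with 8 genes summing to 0.972 to 1.42 CPM in CTRL and 0.268 to 0.599 CPM in RbpjΔEC. Ms4a1 had 6, 2 and 10 counts in CTRL and 0, 1 and 5 in RbpjΔEC, and Cd79a had 10 to 15 and 10 to 18. T cell markers summed to 3.39 to 5.53 and 4.91 to 8.73 CPM, nearly all of it Lck, and Cd3d, Cd3e and Trbc2 were at 0 in every library.

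Dendritic cell markers gave no called gene among 4 tested, all 4 with a log2 fold change above 0 (median 0.31). Irf8 was at 35.1 ± 6.89 CPM in CTRL and 45.6 ± 2.76 CPM in RbpjΔEC (SD, n = 3 each, log2 fold change 0.38, adjusted p = 0.169, edgeR). Its groups did not overlap, beside 23.0% of all tested genes. The sum of the markers, 229.9 to 303.6 CPM in CTRL and 284.5 to 304.8 CPM in RbpjΔEC, came mostly from Zbtb46 and Irf8. Which cells held the RNA of Zbtb46 and Irf8 was not tested. Of the markers with too few counts to be tested, Flt3 had 31, 7 and 3 counts in CTRL and 4, 0 and 2 in RbpjΔEC, and Itgax 28, 4 and 22 against 8, 3 and 9. Both were highest in CTRL 1.

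Macrophage markers moved in both directions, with Cd68 higher and Mrc1 lower among 7 tested with edgeR (median -0.97). Cd68, a lysosomal glycoprotein, rose from 9.97 ± 2.71 to 24.0 ± 1.70 CPM (log2 fold change 1.27, adjusted p = 0.0154, edgeR), and Mrc1, the mannose receptor, fell from 6.03 ± 1.95 to 2.05 ± 0.495 CPM (-1.56, adjusted p = 0.0261, edgeR, SD and n = 3 in each group for both genes). Cd68 passed in 3 of 6 fits without 1 library (adjusted p 0.00490 to 0.0917) and Mrc1 in 2 of 6 (0.00730 to 0.137), Cd68 failing without CTRL 3, RbpjΔEC 1 or RbpjΔEC 2 and Mrc1 without these or CTRL 1. Adgre1 had 17, 1 and 13 counts in CTRL and 0, 9 and 2 in RbpjΔEC, and Csf1r 154, 59 and 86 against 30, 19 and 51. C1qa had 21, 2 and 9 counts against 12, 6 and 10, and Lyz2 had 103, 21 and 47 against 18, 18 and 36. In CTRL these 4 genes were lowest in CTRL 2, the library in which Cd68 was highest.

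EC markers were lower in sum in RbpjΔEC, at 28124 to 28580 CPM against 30350 to 33996 CPM in CTRL, with 11 of 14 log2 fold changes below 0, a median of -0.18 and 0 past the threshold with edgeR. DESeq2 called 4 of the 14, all lower, Eng (adjusted p = 0.00268), Kdr (0.0151), Emcn (0.0440) and Flt1 (0.0498). When libraries were scaled to these EC genes, an alternative chosen after the data had been seen, the log2 fold change was -0.35 for H2-Aa, -0.21 for H2-Ab1, -0.39 for H2-Eb1, -0.38 for Cd74, -0.14 for H2-DMb1, -0.09 for Ctss and 0.35 for H2-DMa (adjusted p = 0.151, edgeR), none past the threshold. That scaling moved the median of all tested genes to 0.21, and Ciita moved to 0.05. Tubule genes summed to 278.1 to 415.5 CPM in CTRL and 106.3 to 391.6 CPM in RbpjΔEC, with 0 of 8 past the threshold with edgeR or DESeq2 and a median of -0.11. They divided by segment, with log2 fold changes of 0.98 to 1.28 for the proximal genes Lrp2, Slc34a1, Cubn and Slc5a2 and of -2.77 to -1.19 for Umod, Slc12a1, Slc12a3 and Aqp2 of the later segments. Slc5a2, Umod, Slc12a1 and Aqp2 had groups that did not overlap, and the part of tubule RNA in the class II levels was not tested. The tubule sum was highest in CTRL 1 (415.5 CPM), where H2-Aa and H2-Ab1 were also highest, and lowest in RbpjΔEC 2 (106.3 CPM). RbpjΔEC 3, with the high Lrp2, was the lowest library for 6 of the 8 class II genes. Without RbpjΔEC 3 the log2 fold changes were -0.34 for H2-Aa, -0.26 for H2-Ab1, -0.36 for H2-Eb1 and -0.28 for Cd74, 0 of them past the threshold.

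**Figure D5:**
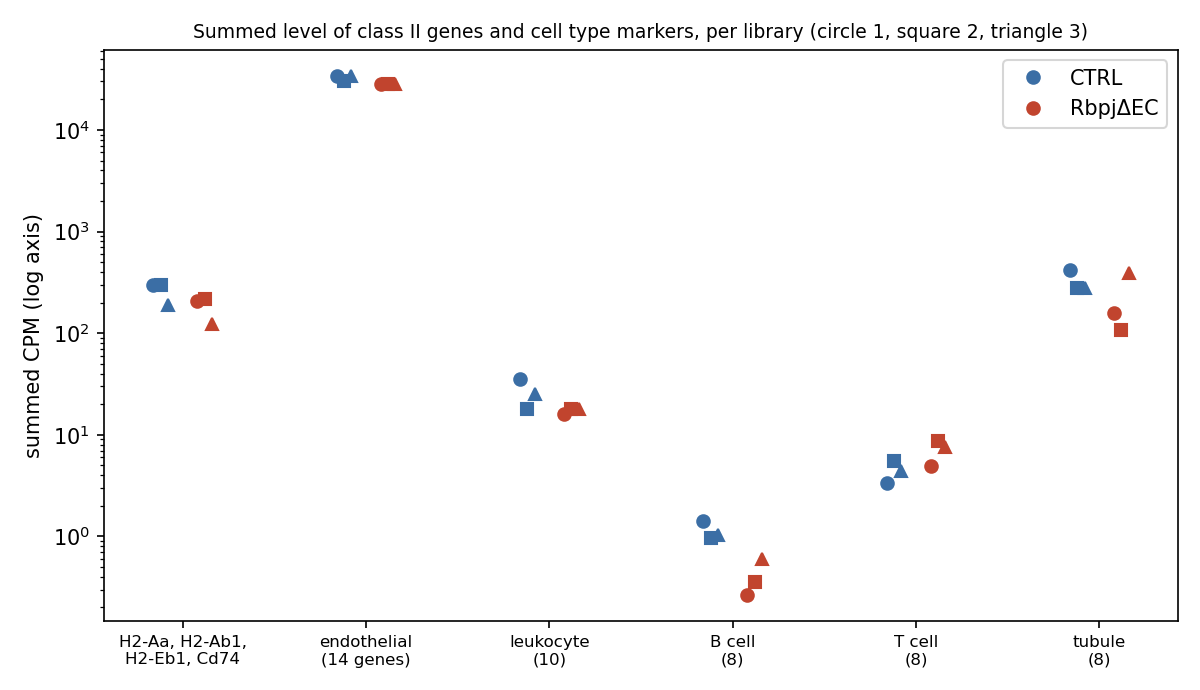
Summed level in CPM (vertical axis, logarithmic) of H2-Aa, H2-Ab1, H2-Eb1 and Cd74 and of marker lists for EC, leukocyte, B cell, T cell and tubule (horizontal axis, number of genes in brackets) in CTRL (blue) and RbpjΔEC (red) libraries, with circles, squares and triangles for replicates 1, 2 and 3. The class II sum is lowest at the triangle in each group (188.7 and 123.4 CPM), while the leukocyte sum is lowest at CTRL 2 (17.8 CPM) among the CTRL libraries.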

How the data were processed

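Stranded total RNA libraries of sorted kidney ECs (3 CTRL, 3 RbpjΔEC mice) were sequenced in 1 run. The authors aligned the reads with STAR 2.6.1d in nf-core/rnaseq 1.4.2 to GRCm38.p6 with GENCODE M25, after Trim Galore 0.6.4, and deposited raw counts per gene from featureCounts (Subread 1.6.4). Versions are from the submitters' processing notes and the study's methods.

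From the deposited counts, edgeR 4.0.16 under R 4.3.3 gave TMM factors, CPM and log2 fold changes (filterByExpr, glmQLFit with robust estimation, glmQLFTest), with Benjamini-Hochberg adjustment over 18438 genes and a threshold of 0.05. DESeq2 1.42.0 was an alternative, as were other normalizations and filters, a replicate block and each library left out. The fit was tested on simulated data. Log2 CPM used a prior count of 2. Coordinates and lengths came from GENCODE M21, so positions can differ from M25. P-values measure the spread between 3 mice a group.

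The members and lists (other chains, transcription, interferon-γ, lysosomal processing, turnover, costimulation, region, EC, leukocyte, macrophage, dendritic, B cell, T cell, tubule) were chosen with earlier results of these data known. Named were the members, the chains and transcription factors, in other lists the called genes or up to 3 with the smallest p, defining markers, region genes, and the 10 genes most like the members. The results for 3 listed genes are not reported here. The other named genes of the interferon-γ list and Lrp2, Slc34a1, Cubn, Slc12a1, Slc12a3, Flt1, Zbtb46, Lck, Cd3d, Trbc2, Arhgdib, Marchf1, Dexi, Cd80, Cd86 and Pdcd1lg2 were added after their values were seen.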

Additional observations from a re-analysis of the deposited data

How the results depend on the processing

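In every fit that left out 1 library the log2 fold changes kept their sign and 0 class II genes passed: H2-Aa had -0.69 to -0.34, H2-Ab1 -0.54 to -0.26, H2-Eb1 -0.80 to -0.36, H2-DMa 0.07 to 0.25, H2-DMb1 -0.42 to -0.19, Cd74 -0.85 to -0.28, Ciita -0.27 to -0.02 and Ctss -0.55 to -0.10. Against 209 genes in all, 54, 700 and 24 passed without CTRL 1, 2 and 3 and 21, 48 and 521 without RbpjΔEC 1, 2 and 3. These fits called 0 to 5 of the other pathway genes, against 2: 0 without CTRL 1, CTRL 3, RbpjΔEC 1 or RbpjΔEC 2, and 5 without CTRL 2. Without a filter on low counts 1436 genes, 6 pathway genes and 2 class II genes passed, H2-Aa at -0.53 (adjusted p = 0.00109) and H2-Ab1 at -0.40 (adjusted p = 0.000191). DESeq2 called 584 genes and 0 class II genes. The causes were not tested. With the replicate number as a term (replicate block), 344 genes passed and 4 class II genes, H2-Aa at -0.56, H2-Ab1 at -0.43, H2-Eb1 at -0.61 and Cd74 at -0.57 (adjusted p = 0.0190, 0.0316, 0.0344 and 0.00400, edgeR). The numbers are not shown to pair mice: the deviations of same-numbered libraries from their group means correlated at 0.023, 0.009 and 0.005, and CTRL 1 correlated best with RbpjΔEC 3. Scaling to EC markers, added after the data were seen, called 847 genes (784 higher) and 4 pathway genes, moved the median of all genes to 0.21 and put Ciita at 0.046 (adjusted p = 0.881). With library size as the sole scaling 159 genes passed as higher and 82 as lower, against 106 and 103. Over all alternatives 97 of the class II fold changes kept their direction and side of the threshold, 6 passed it and 1 turned. Genes of few counts, such as Ctss and the leukocyte markers, carry more counting error for their level, which was not separated from the spread between mice.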
